A study of Mus musculus with 7 samples.

Results

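The genes described here were 9 transcription factors that act in the oocyte from the primordial to the growing follicle: *Sohlh1*, *Sohlh2*, *Figla*, *Nobox*, *Lhx8*, *Taf4b*, *Tbpl2*, *Foxo3* and *Pou5f1*. They were chosen by name, and all 9 have a row among the 22877 rows of the expression table. RNA was sequenced from oocytes taken out of secondary follicles of 8-week-old C57BL/6J mice, with 5 oocytes pooled in each library. The 4 WT libraries came from wild-type littermates, and the 3 *Mfn1*-/- libraries (labelled KO) came from *Mfn1* fl/fl mice carrying Zp3-Cre. Cre under the Zp3 promoter acts once oocytes have begun to grow, and *Mfn1* encodes a protein of the outer mitochondrial membrane needed for mitochondrial fusion. Apart from the stated number of mice, 3 per genotype, nothing says which libraries came from separate animals. The labels do not give the follicle size behind each library, so genotype and follicle size cannot be told apart.

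For each gene the authors' table gives 1 mean of normalized counts per genotype. Values of single libraries were not analysed here, so the spread between libraries and the depth of each library are unknown, no test was run, and every difference below compares 2 means with no replicate error. A mean may rest on all libraries of a genotype or mostly on 1 of them. Log2 fold changes were taken as *Mfn1*-/- over WT after 0.1 was added to each mean, so fold changes at low means come out smaller than the ratio, and a gene was called when the change was past 2-fold. How the counts were scaled, and whether gene length entered, is not given in the sources used here, so a higher value for 1 gene than for another need not mean more transcripts. Sums and highest means within a list of cell markers are therefore in the table's own units.

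Oocyte transcription factors act in a hierarchy. The basic helix-loop-helix (bHLH) factors SOHLH1 and SOHLH2 are made in oocytes of primordial and primary follicles, are needed for the start of follicle growth, and lie upstream of the homeobox factors LHX8 and NOBOX and of the bHLH factor FIGLA. FIGLA is needed for primordial follicles to form and switches on the zona pellucida genes, while NOBOX and LHX8 maintain genes of the growing oocyte such as *Gdf9*. TBPL2 and TAF4B are germ cell forms of the general transcription machinery, FOXO3 holds primordial follicles dormant, and POU5F1 is a pluripotency factor that is made again as the oocyte grows.

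*Mfn1*, the deleted gene, had a mean of 0.0577 normalized counts in *Mfn1*-/- oocytes and 0.616 in WT, a log2 fold change of -2.18. At such means the value depends on the pseudocount, and it was -0.61, under 2-fold, with a pseudocount of 1 and -3.42 with none. The lower level was in the libraries labelled KO. Oocyte markers were present in both genotypes: all 12 of the listed markers had a row, and their means summed to 3570 in *Mfn1*-/- oocytes and 3140 in WT, with *Ooep*, a subcortical maternal complex gene, the largest contributor. Granulosa cell markers summed to 3.21 and 3.45 over 13 genes with a row, of which 8 were under 0.1 in both genotypes. *Fshr*, the receptor for follicle-stimulating hormone, had means of 0.016 and 0.0171, close to the lowest value in the table, 0.01.

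Of the 9 transcription factors, 1 was called higher in *Mfn1*-/- oocytes, 0 were called lower and 8 lay within 2-fold. Among all 22877 rows, 1114 (4.87%) were called higher and 628 (2.75%) were called lower. The 1 call among 9 is too few to read against that background as a property of the group, and the result is about *Sohlh1*. The median log2 fold change of the 9 genes was 0.23, against 0.04 over all rows. Genes with a mean of at least 1 over the libraries, 6226 rows, had a median of 0.16, and relative to that shift 5 of the 9 factors were above and 4 below. When the shift was subtracted from every row, 818 rows were called higher and 916 lower, so that the higher share of calls went from 63.9% to 47.2%, while the calls among the 9 factors were again 1 higher and 0 lower.

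**Figure D1:**
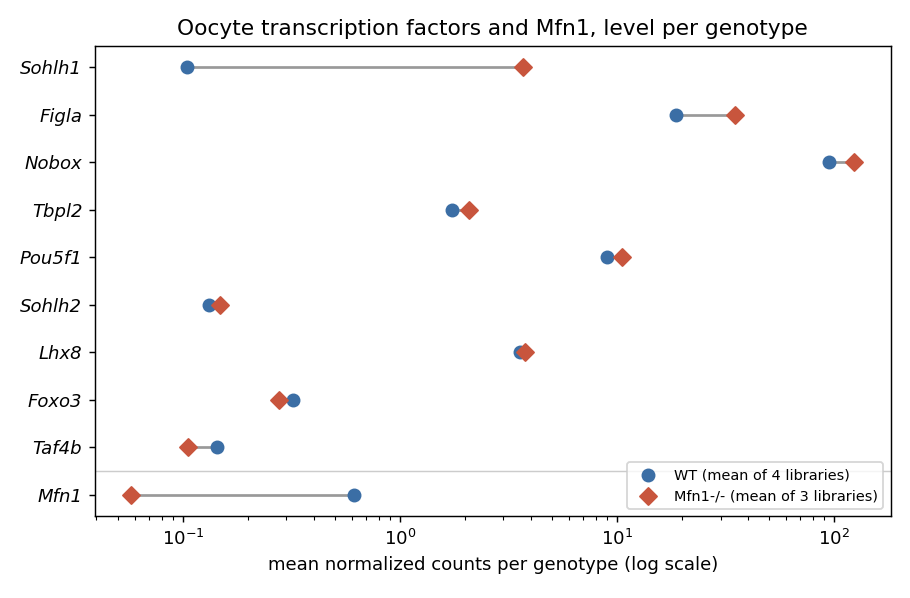
Mean normalized counts per genotype on a log scale (circles, WT, 4 libraries; diamonds, *Mfn1*-/-, 3 libraries) for the 9 factors, ordered by log2 fold change, with *Mfn1* below the line. The *Sohlh1* means, 0.105 and 3.68, lie far apart, while the other 8 pairs lie within 2-fold; points are the authors' means and carry no error.

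*Sohlh1* lies on chromosome 2 of GRCm38, minus strand, from 25842995 to 25847248 (ENSMUSG00000059625.6). It averaged 3.68 normalized counts in *Mfn1*-/- oocytes and 0.105 in WT, a ratio of 35.0 and a log2 fold change of 4.20. Only 7 of the 22877 rows had a higher log2 fold change: *Fgf21*, *Ptgds*, *Usp17lb*, *Herpud1*, *Krtap4-13*, *Mt1* and *Hes5*. This rank is for 0.1 added to each mean and was not computed for other pseudocounts. The *Mfn1*-/- mean of *Sohlh1* corresponds to a sum of 11.0 normalized counts over 3 libraries and the WT mean to 0.42 over 4. How either sum divides among libraries is not shown by the table. These sums are in normalized units and are not numbers of reads. Over all rows, the means added up to 142600 in *Mfn1*-/- oocytes and 130200 in WT. Adding 1 to each *Sohlh1* mean in place of 0.1 gave a log2 fold change of 2.08. Adding 0.01 gave 5.00, and *Sohlh1* was past 4-fold in both.

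The genes around *Sohlh1* were read next. Within 100000 bases on either side, the 2 genes with a row were *Kcnt1*, a potassium channel gene with means of 0.0137 and 0.01, and *Camsap1*, which encodes a microtubule minus-end protein and had means of 0.973 and 1.05. Their log2 fold changes were 0.05 and -0.10, both within 2-fold. The WT mean of *Kcnt1* is the lowest in the table, and at such means the added 0.1 keeps fold changes small. With 4.87% of all rows called higher and 2.75% lower, 2 neighbors are too few to read as a property of the region. No annotated gene overlapped *Sohlh1* in GENCODE M21, and 0 other genes had a transcript sharing at least 75 bases with it at 95% identity or more.

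The 5 genes whose pair of means was nearest to that of *Sohlh1*, by distance on the log2(mean + 0.1) scale over the 2 genotypes, were *Pramef25* (distance 0.22), *Herpud1* (0.30), *Gm8332* (0.41), *Hes5* (0.41) and *Usp17lb* (0.50). *Pramef25*, a member of the PRAME family, had means of 3.9 in *Mfn1*-/- oocytes and 0.137 in WT. *Herpud1*, an endoplasmic reticulum stress gene, had 3.97 and 0.0683, and *Hes5*, a bHLH repressor that answers Notch signaling, had 3.02 and 0.0658. The likeness rests on 2 values per gene and shows no more than a low WT mean and an *Mfn1*-/- mean of a few normalized counts.

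*Sohlh2*, the bHLH partner of *Sohlh1*, did not show this difference. It lies on chromosome 3, plus strand, from 55182028 to 55209957 (ENSMUSG00000027794.4). It averaged 0.148 in *Mfn1*-/- oocytes and 0.132 in WT, a ratio of 1.12 and a log2 fold change of 0.10, and 42.7% of all rows had a log2 fold change at least as high. After the overall shift of 0.16 was subtracted, the value was -0.06.

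The sequences upstream of both *Sohlh* genes are shown because *Sohlh1* was past 2-fold and its partner gene was not, with each E box, the CANNTG hexamer bound by bHLH proteins, in capitals. The windows run from 250 to 51 bases before the RefSeq start (GRCm38.p6), 5′ to 3′ on the strand of the gene, at chr2:25847299-25847498 (minus strand) and chr3:55181794-55181993 (plus strand).
*Sohlh1*: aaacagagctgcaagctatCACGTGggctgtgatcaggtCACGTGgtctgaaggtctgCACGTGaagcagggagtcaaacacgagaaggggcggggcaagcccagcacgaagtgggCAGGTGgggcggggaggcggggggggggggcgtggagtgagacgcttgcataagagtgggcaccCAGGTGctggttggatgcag
*Sohlh2*: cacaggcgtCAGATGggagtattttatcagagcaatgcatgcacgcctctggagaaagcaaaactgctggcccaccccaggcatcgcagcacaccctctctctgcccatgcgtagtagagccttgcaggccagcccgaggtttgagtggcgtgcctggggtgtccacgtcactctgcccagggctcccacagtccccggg
The *Sohlh1* window held 5 E boxes, 3 of the form CACGTG and 2 of the form CAGGTG, and the *Sohlh2* window held 1, of neither form. CANNTG covers both of these forms, and it and CACGTG read the same on either strand, while CAGGTG was searched on both strands. Of 32851 windows of the same length from RefSeq promoters, 59.0% held at least 1 CANNTG and 0.545% held at least 5. At least 1 CACGTG was found in 4.34% of windows, and at least 3 in 8 windows (0.0244%). Such matches describe the letters only, and no binding was measured.

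Of the 9 factors, 8 had a promoter window in the RefSeq table, and 6 of these 8 held an E box. *Tbpl2* held 4, *Figla* 2, *Nobox* 1 and *Pou5f1* 1 in each of its 2 windows. The *Figla* window and 1 of the *Pou5f1* windows begin inside the gene as placed by GENCODE, since RefSeq starts those transcripts further in. CACGTG was found in the *Sohlh1* window alone among the windows of the factors, while CAGGTG was in those of 4 factors, also *Tbpl2*, *Nobox* and *Figla* with 1 each, and in 14.4% of all windows. The homeobox elements TAATTG and TAATTA, the octamer ATGCAAAT and the forkhead element GTAAACA, each searched on both strands, were in 0 of the factors' windows and in 6.11%, 4.19%, 1.32% and 2.58% of all windows. The windows end 51 bases before the RefSeq start and do not cover the place of a TATA box.

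*Figla* had the second largest difference of the 9 factors, with means of 34.9 in *Mfn1*-/- oocytes and 18.7 in WT. The gene lies on chromosome 6, plus strand, from 86016171 to 86020996 (ENSMUSG00000030001.4). The ratio of 1.87 and the log2 fold change of 0.90 were just short of 2-fold, and 6.20% of all rows were at least as high. The value was nearly the same with a pseudocount of 1 (0.87) and lower after subtraction of the overall shift (0.74). Among 7 neighbors within 100000 bases, the processed pseudogene *Gm7542*, with means of 0.716 and 0.01, was the only gene called. The shares of all rows called were 4.87% higher and 2.75% lower, and 1 call among 7 is too few to read against them.

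The FIGLA-controlled zona pellucida genes, which encode the coat around the oocyte, differed less than *Figla* itself. *Zp3* had means of 708 in *Mfn1*-/- oocytes and 609 in WT, *Zp2* had 188 and 163, and *Zp1* had 150 and 143. Their log2 fold changes of 0.22, 0.21 and 0.07 were close to or below the overall shift. Of these 3 genes, 0 were called, beside 4.87% of all rows called higher and 2.75% called lower. A list of 3 genes is too short to read against those shares. Subtracting the median of genes of like GC content gave -0.13, 0.14 and -0.20, so the sign for *Zp3* and *Zp1* depends on scaling. *Tcf3*, which encodes an E protein that pairs with FIGLA on E boxes, had means of 0.566 and 0.444. Of the 3 E protein genes, 0 were called in either direction (4.87% and 2.75% of all rows). In both genotypes 2 of the 3 had means under 0.1, where the added 0.1 keeps fold changes small.

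*Nobox* (chromosome 6, minus strand, 43303674 to 43309554) had means of 124 in *Mfn1*-/- oocytes and 94.9 in WT, a log2 fold change of 0.39, which came to 0.23 with the overall shift subtracted and 0.15 with the GC-related median subtracted. *Lhx8* (chromosome 3, minus strand, 154306294 to 154330659) had means of 3.76 and 3.59, a log2 fold change of 0.06 that turned to -0.09 once the overall shift was subtracted. Both were well within 2-fold. Of the 3 neighbors of *Nobox*, *Gm21827*, with means of 0.151 and 0.01, was called higher, and the WT mean there is the lowest in the table. With 4.87% of all rows called higher and 2.75% lower, 1 call among 3 neighbors is too few to read as a property of the region.

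Genes that depend on NOBOX, the SOHLH factors or LHX8 differed in both directions. Of 14 such genes, 6 had a higher and 8 a lower mean in *Mfn1*-/- oocytes, 0 were called higher or lower (4.87% and 2.75% of all rows), and the median log2 fold change was -0.07. *Padi6*, a gene of the oocyte's cytoplasmic lattices, had the highest value of the list, 0.66, with means of 203 and 128. *H1foo*, the oocyte linker histone, had the lowest, -0.44, with means of 813 and 1100. The growth factor genes *Gdf9* (533 and 461) and *Bmp15* (158 and 181), through which the oocyte acts on granulosa cells, had log2 fold changes of 0.21 and -0.20, and that of *Gdf9* was -0.07 with the GC-related median subtracted. *Kit*, the receptor for granulosa cell KIT ligand, had means of 0.679 and 0.922.

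**Figure D2:**
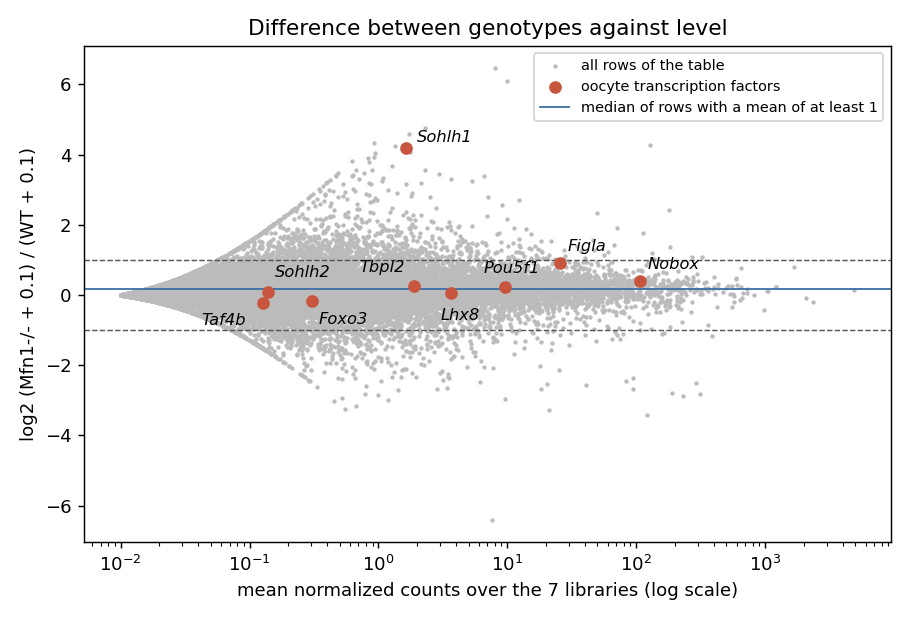
Log2 fold change (*Mfn1*-/- over WT, 0.1 added to each mean) against the mean normalized counts over the 7 libraries on a log scale, for all rows (gray) and the 9 factors (red). Dashed lines mark 2-fold and the blue line the median of 0.16; *Sohlh1* at 4.20 lies near the upper edge, *Figla* at 0.90 below the dashed line, and the rest near the blue line.

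*Tbpl2*, which encodes the oocyte relative of the TATA-binding protein, had means of 2.08 in *Mfn1*-/- oocytes and 1.73 in WT and a log2 fold change of 0.25. The gene lies on chromosome 2, minus strand, from 24071721 to 24096595. *Taf4b*, the gonadal TFIID subunit, had a log2 fold change of -0.24, with means of 0.106 and 0.143. At such means the pseudocount matters, and the log2 fold change of *Taf4b* ran from -0.05 with a pseudocount of 1 to -0.43 with none.

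The ubiquitous relatives of these 2 factors also lay within 2-fold. *Tbp*, the general TATA-binding protein gene, had means of 4.97 and 3.61 and a log2 fold change of 0.45. *Tbpl1*, the other TBP-like gene, had 0.482 and 0.311, and *Taf4*, the paralog of *Taf4b*, had 0.16 in both genotypes. Of 16 other genes of TFIID, TFIIA and TFIIB, 6 were higher, 10 were lower and 0 were called in either direction (4.87% and 2.75% of all rows), with a median log2 fold change of -0.09. The lowest was *Taf8* (-0.42) and the highest *Taf1* (0.24). *Gtf2a1l*, the germ cell form of a TFIIA subunit, had means of 2.2 and 2.22.

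*Foxo3* (chromosome 10, minus strand, 42181841 to 42276755) had means of 0.277 in *Mfn1*-/- oocytes and 0.323 in WT. Its log2 fold change of -0.17 was lower than that of 77.7% of rows or equal to it. The value was -0.05 with a pseudocount of 1 and -0.45 with the median of genes of like GC content subtracted. *Foxo1* had means of 0.931 and 1.19, *Foxo6* had 0.104 and 0.0593, and *Foxo4* had no row. FOXO3 is mainly controlled by phosphorylation and export from the nucleus, which RNA levels do not report.

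Of 14 genes of the KIT to AKT arm that controls FOXO3, 8 were higher, 6 were lower and 0 were called in either direction (4.87% and 2.75% of all rows), with a median log2 fold change of 0.04. *Pik3r1*, a regulatory subunit of phosphatidylinositol 3-kinase, had the lowest, -0.47, with means of 0.331 and 0.499.

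Among 20 widely used FOXO target genes, 2 were called higher and 0 lower, beside 4.87% and 2.75% of all rows, and the median log2 fold change was 0.06. Whether the list differs from the table as a whole was not tested. *Klf2*, a Krüppel-like factor gene that also answers other signals, had means of 4.49 in *Mfn1*-/- oocytes and 0.398 in WT, a log2 fold change of 3.20. *Gadd45a*, a growth arrest and DNA damage gene also under p53 control, had means of 2.94 and 1.19 and a log2 fold change of 1.24, or 0.85 with a pseudocount of 1, under 2-fold. The cell cycle inhibitor gene *Cdkn1b*, with means of 0.423 and 0.413, and the proapoptotic gene *Bcl2l11*, with 0.222 and 0.157, lay within 2-fold, as did the remaining 16. *Txnip*, a thioredoxin inhibitor gene, stood at 54.7 and 80.8 and the lowest log2 fold change, -0.56.

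*Pou5f1* (chromosome 17, plus strand, 35506018 to 35510772) had means of 10.5 in *Mfn1*-/- oocytes and 8.96 in WT and a log2 fold change of 0.23. It overlaps *Gm19553*, an antisense gene with means of 0.01 and 0.0347 whose transcript shares 171 bases with it. Whether the counting used strand is not given in the sources used here, so reads of the 2 genes cannot be told apart. Among 7 neighbors within 100000 bases, *2300002M23Rik*, with means of 1.61 and 4.27 and a log2 fold change of -1.35, was the only gene called. Beside it, 4.87% of all rows were called higher and 2.75% lower, and 1 call among 7 is too few to read against these shares.

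Of 15 pluripotency genes that act with POU5F1, 11 had a row, and 4 had a higher and 7 a lower mean in *Mfn1*-/- oocytes. *Nanog*, *Fgf4*, *Utf1* and *Tdgf1* had no row. Beside 4.87% and 2.75% of all rows, 0 of the 11 were called higher and 2 lower, *Sox2*, with means of 0.0265 and 0.227, and *Esrrb*, with 0.514 and 1.2. Their log2 fold changes of -1.37 and -1.08 came to -0.26 and -0.54 with a pseudocount of 1, so at these low means neither call holds under that setting. *Sox2* lies within the longer gene *Sox2ot* on the same strand, whose means were 0.0106 and 0.0109. *Dppa5a*, an RNA-binding protein gene, had means of 2220 and 1280 and the highest log2 fold change of the list, 0.79, and *Dppa3*, a maternal factor gene, had 812 and 816.

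Of 12 genes of earlier germ cell stages, 8 had a row, 4 were higher and 4 lower. In either direction 0 were called (4.87% and 2.75% of all rows). *Ddx4* and *Dazl* of this list are also among the oocyte markers. The highest values of the list were just short of 2-fold, near that of *Figla*. *Sycp3*, a gene of the meiotic chromosome axis, had means of 4.84 in *Mfn1*-/- oocytes and 2.62 in WT and a log2 fold change of 0.86. *Ddx4*, a germ cell RNA helicase gene, had 2.74 and 1.51 and a value of 0.82, and *Tfap2c*, a transcription factor gene of primordial germ cells, had 1.7 and 0.994 and a value of 0.72. On the other side were *Dppa4* (-0.59) and *Prdm1* (-0.47, or -1.05 with 0.01 added to its low means), while the meiotic genes *Stra8*, *Rec8* and *Spo11*, and *Nanos3*, had no row.

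STAT3, DYNLL1 and SUB1 are used together with several of the 9 factors to drive oocyte-like growth in cultured stem cells. *Stat3* had means of 0.969 in *Mfn1*-/- oocytes and 0.736 in WT, *Dynll1* had 269 and 214, and *Sub1* had 54.2 and 62.6. Their log2 fold changes of 0.35, 0.33 and -0.21 were all within 2-fold. Of all rows, 4.87% were called higher and 2.75% lower, and a list of 3 genes is too short to read against those shares.

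**Figure D3:**
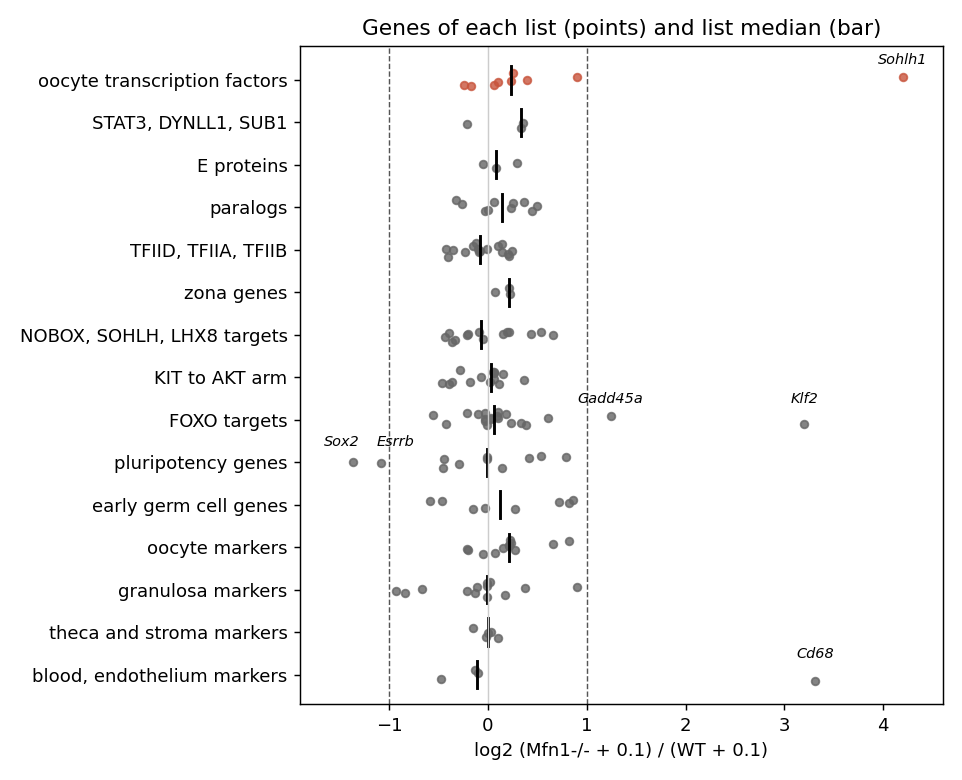
Log2 fold change (*Mfn1*-/- over WT, 0.1 added to each mean) of each gene (points) by list, with the list median (bar) and dashed lines at 2-fold. In the list of 9 factors *Sohlh1* stands at 4.20 with the others between -0.24 and 0.90; the other named points past 2-fold are *Klf2*, *Gadd45a*, *Sox2*, *Esrrb* and *Cd68*.

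Markers of other cell types were read beside the *Sohlh1* difference, with 4.87% of all rows called higher and 2.75% lower. Of the 13 granulosa markers with a row, 4 were higher, 9 lower and 0 called. With 0.01 added to each mean, *Hsd17b1* (-1.66), *Cyp19a1* (-1.10) and *Foxl2* (1.14) were past 2-fold, as was *Esr2* (-1.09) with the overall shift subtracted, and *Esr2* (-1.09) and *Hsd17b1* (-1.08) with the GC-related median subtracted. *Inha*, an inhibin subunit gene, had means of 1.87 in *Mfn1*-/- oocytes and 0.954 in WT, and *Esr2*, an estrogen receptor gene, had 0.929 and 1.86, so that *Inha* was the highest of the list in *Mfn1*-/- oocytes and *Esr2* in WT. The 5 theca and stroma markers with a row summed to 0.162 and 0.174, with *Star* the highest in both genotypes and 0 called. Among the 4 blood and endothelium markers with a row, 1 was called, *Cd68*, a lysosomal protein gene of macrophages, with means of 7.58 and 0.672 and a log2 fold change of 3.31. The list summed to 7.79 and 0.96, most of it *Cd68*, and *Hba-a2*, a globin gene, was past 2-fold with 0.01 added (-1.21), while *Lyz2*, the lysozyme gene of macrophages, had means of 0.01 and 0.0203 and *Ptprc*, which marks all leukocytes, had no row. The part of these markers in the *Sohlh1* result was not tested. As RNA was pooled from 5 oocytes, how many oocytes held a transcript and how much each held cannot be told apart.

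**Figure D4:**
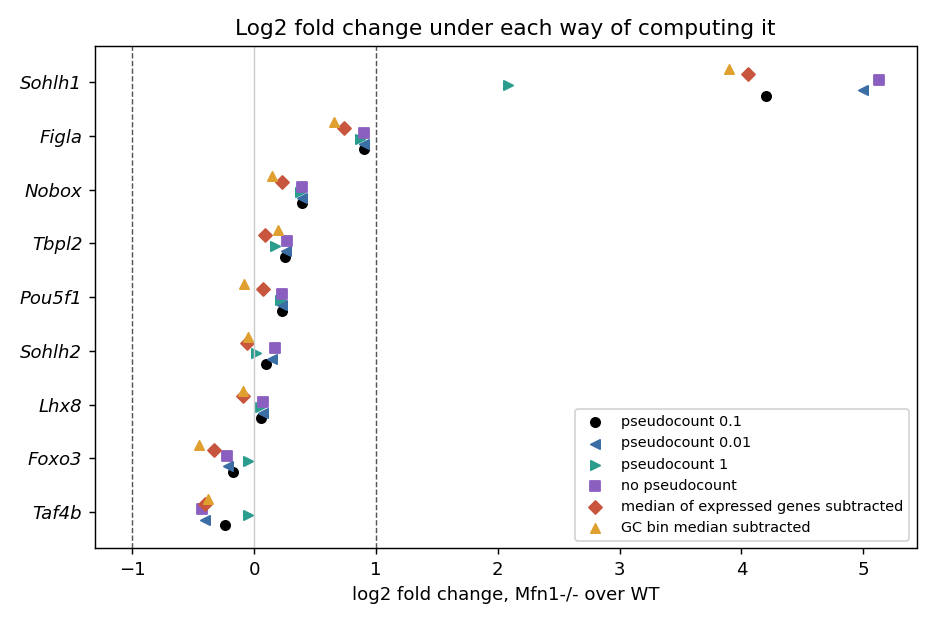
Log2 fold change of the 9 factors under 6 ways of computing it, with dashed lines at 2-fold. *Sohlh1* runs from 2.08 to 5.13, past 2-fold in each, *Figla* from 0.66 to 0.90, and *Sohlh2*, *Lhx8* and *Pou5f1* have values on both sides of 0.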

How the data were processed

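Oocyte RNA from 4 WT and 3 *Mfn1*-/- libraries was amplified with Smart-Seq2. Adapters were removed with Cutadapt, low-quality reads were dropped with the FASTX-Toolkit, and STAR mapped the rest to GRCm38/mm10 before gene counting, all by the authors. The deposited signal is normalized counts, as 1 mean for each genotype and 1 sum over libraries. The authors compared genotypes with DESeq2. The scaling and annotation version are not given in the sources used here. In 100% of rows that sum matched, within 1%, the genotype means weighted by 3 (*Mfn1*-/-) and 4 (WT), so 7 libraries enter, while the design text gives n = 3 per genotype. The remaining 4 columns hold the authors' own comparison (p-value, FDR, ratio, fold change) and were not used. There were 0 unused columns of per-sample values, so tests across libraries could not be run.

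Log2 fold changes (pseudocount 0.1) and calls past 2-fold were computed with Python 3.11.15, numpy 2.4.6 and pandas 2.3.3, and checked on simulated means. Named were *Mfn1*, the 9 factors, listed genes that were called or stand for a role, and the 5 genes nearest to the factor with the largest change. Genes ranked above *Sohlh1*, and its neighbors, were named after their values were seen. The factors and lists were chosen with earlier results of these data known. Positions, GC content and overlaps came from GENCODE M21, near-identical transcripts from blastn 2.17.0, (75 bases, 95% identity), promoter windows from RefSeq (GRCm38.p6), and figures from matplotlib 3.10.9. Alternatives were pseudocounts of 0.01, 1 and none, minimum means of 0.1 and 1, thresholds of 1.5-fold and 4-fold, subtraction of the median of genes with a mean of at least 1 and, chosen after seeing the data, of the median in each of 20 bins of GC content.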

Additional observations from a re-analysis of the deposited data

How the results depend on the processing

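*Sohlh1* was past 2-fold under each alternative run, with log2 fold changes from 2.08 to 5.13, and 0 factors were called lower in any of them. With a threshold of 1.5-fold, 2 factors (*Sohlh1* and *Figla*) were higher. *Sohlh2* and *Lhx8* turned negative when the median of expressed genes or of the GC bin was subtracted (-0.06 and -0.05 for *Sohlh2*, -0.09 and -0.09 for *Lhx8*), and *Pou5f1* with the GC bin median (-0.08). The counts over all rows, 1114 higher and 628 lower, depended on the setting: 2841 and 1575 at 1.5-fold, 161 and 72 at 4-fold, 2904 and 1901 with no pseudocount, 2395 and 1516 when 0.01 was added to the means, 209 and 110 when 1 was added, and 339 and 202 with a mean of at least 1. With the GC bin median subtracted, an alternative chosen after seeing the data, 732 were higher and 803 lower, the higher share being 47.7% of calls. Of 100 other genes of the pathway lists, 2 were higher and 2 lower; this became 8 higher at 1.5-fold, 1 and 0 at 4-fold, 4 and 4 with no pseudocount, 1 and 0 with a pseudocount of 1, and 0 lower with a mean of at least 1, where 48 genes were left. Thresholds and minimum means change these counts by their construction.

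No paired analysis was possible because the table holds 1 mean per genotype; for the same reason leaving out each replicate in turn and the replicate block were not run. The depth of each library is not given in the sources used here. The precision of the low means of *Sohlh2*, *Taf4b* and *Foxo3*, all under 1, therefore cannot be stated. The same holds for the WT mean of *Sohlh1*, 0.105, on which its ratio of 35.0 rests.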

Other observations

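The 8 promoter windows with at least 3 CACGTG hexamers belonged to 7 genes, of which 4 had a row in the expression table. Besides *Sohlh1* these were *Cdk4*, a cell cycle kinase gene, at 4.2 in *Mfn1*-/- oocytes and 2.8 in WT, *Ptprs*, a receptor phosphatase gene, with 0.116 and 0.0808, and *Gtf2ird2*, with 0.0208 and 0.0173. Their log2 fold changes were 0.57, 0.26 and 0.04. These genes were named after their values were seen, and the low means of *Ptprs* and *Gtf2ird2* keep them near 0 with 0.1 added.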
